A study of Mus musculus with 10 samples.

Results

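The sterol and fatty acid metabolism genes described here are 42 mouse genes of lipid uptake, synthesis, oxidation, storage and export. A peak of open chromatin was counted for a gene if it overlapped the gene body or lay within 10 kb of it in the GRCm38 annotation. By this rule 223 of the 97385 peaks of the series belonged to the 42 genes, and each gene had at least 1. A peak within 1 kb of an annotated transcript start of its gene was called a promoter peak, which held for 71 of the 223, and the remaining 152 were called other peaks. Hadha and Hadhb share the peak between their divergent starts, which was counted once. Of the 223 peaks, 222 passed the filter on low counts. The exception was a 31-bp peak in an intron of Abca1.

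Cells make cholesterol from acetyl-CoA through the mevalonate pathway and make long-chain fatty acids from the same precursor through acetyl-CoA carboxylase and fatty acid synthase. Both pathways are switched on by the SREBP transcription factors, which Scap escorts out of the endoplasmic reticulum when sterols are low and which Insig proteins hold back when sterols are high. Oxysterols activate the LXR receptors, which raise cholesterol export, and fatty acids activate the PPAR receptors, which raise genes of fatty acid uptake and oxidation. In regulatory T cells (Tregs), which restrain other T cells, the mevalonate pathway is known to be needed for suppressive function, and fatty acid oxidation is a known source of energy.

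The study asked how loss of Vps34, the class III phosphatidylinositol 3-kinase encoded by Pik3c3, alters chromatin accessibility in Tregs, which was measured by ATAC-seq, an assay in which a transposase cuts open DNA. All mice were 10 days old and carried Foxp3Cre, so that Cre acted in cells expressing Foxp3, the lineage gene of Tregs. Control mice were Foxp3Cre Pik3c3 +/+ or +/fl and thus kept at least 1 intact copy of the gene, whereas Vps34-deficient mice were Foxp3Cre Pik3c3 fl/fl. CD4+Foxp3-YFP+TCRb+ cells were sorted, which gave 2 spleen control, 4 spleen Vps34-deficient, 2 lung control and 2 lung Vps34-deficient libraries. The methods give group sizes beside mice, but the labels tie no library to an animal and do not say whether spleen and lung shared mice, so p-values measure the spread between these libraries, which may be technical in part. The sort took all Tregs, and a change in the mix of resting and effector Tregs cannot be told apart from a change within a cell.

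The libraries held between 9405823 and 22439699 counts, with the lung libraries between 9405823 and 14172956. Levels are given as counts scaled to 1000000 per library with TMM factors (CPM), and a CPM of 1 corresponds to about 9 to 23 counts. The peak at the start of Pik3c3 held 53.9 to 66.8 CPM in the 10 libraries, but it lies at the promoter and the sources used here do not give the deleted exons, so it does not check the genotype. All 7 Treg and T cell markers examined (Foxp3, Cd4, Cd3e, Cd3g, Il2ra, Ctla4 and Ikzf2) had promoter peaks, with summed levels of 240 to 326 CPM per library. Of 8 myeloid and alveolar macrophage markers 2 had promoter peaks, which summed to 17.7 to 18.8 CPM in lung controls and 11.1 to 12.9 CPM in lung Vps34-deficient libraries, and to 14.2 to 18.2 and 11.7 to 14.6 CPM in the spleen groups, while Lyz2, Csf1r, Adgre1, Cd68, Marco and Siglecf had none. Sftpc, Sftpa1 and Scgb1a1 of the 6 lung epithelium markers, Cd79a and Ms4a1 of the B cell markers and Adipoq and Cidec of the 4 adipocyte markers had none either. The sums of the adipocyte markers were 8.94 to 10.9 CPM in spleen, 11.6 to 11.8 CPM in lung controls and 13.7 to 16.5 CPM in lung Vps34-deficient libraries, those of the B cell markers 16.3 to 17 CPM in spleen controls, 18 to 22.3 CPM in spleen Vps34-deficient libraries and 18.1 to 23.7 CPM in lung, and those of the lung epithelium markers 34 to 34.3, 27.9 to 32.1 and 25.7 to 32.2 CPM. Endothelium markers summed to 30 to 36.1 CPM in spleen and 29.4 to 38.9 CPM in lung, and CD8 and NK markers to 26.2 to 36.5 CPM in spleen, 24.6 to 28.4 CPM in lung controls and 33.8 to 40.1 CPM in lung Vps34-deficient libraries. In lung the myeloid, adipocyte and CD8 and NK sums thus did not overlap between genotypes, with the myeloid sum below and the other sums above the controls in the Vps34-deficient libraries. In spleen the B cell sums, higher in Vps34-deficient libraries, and the lung epithelium sums, lower there, did not overlap between genotypes either. With 2 to 4 libraries per group ranges can separate by chance, and the share of all peaks that do so was not computed. In each of the B cell, adipocyte, endothelium and lung epithelium lists 1 promoter peak was higher in lung. In the Treg and T cell list 1 was higher (Ctla4, log2 difference 0.93) and 1 lower (Cd3e, -0.53). No promoter peak of any list was called between genotypes. The part of these markers in the results was not tested.

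The libraries differed in how much of their counts fell in narrow peaks. The part of this in the results was not tested beyond a covariate fit given below. Peaks of at most 220 bp, which made up 23.6% of all peaks, held 4.26% and 5.22% of the counts in the spleen controls and 5.34% to 7.12% in the Vps34-deficient spleen libraries. They held 12.4% and 7.8% in lung controls 1 and 2, and 13% and 14.1% in the lung libraries lacking Vps34. The share was thus higher in all 4 lung libraries than in any spleen library, and in each tissue the Vps34-deficient libraries were above both controls. Of the 222 tested peaks of the lipid genes, 34 were this narrow, and they are marked as such below.

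At every peak it was asked whether accessibility differed between lung and spleen Tregs and whether it differed between Vps34-deficient and control Tregs. A peak was called at an adjusted p below 0.05 with a log2 fold change over 0.5 in either direction, using edgeR's quasi-likelihood test over all 97109 tested peaks. Between tissues 39 of the 222 peaks were called, 29 higher and 10 lower in lung. This is 17.6% of the peaks of the lipid genes, against 25.0% of all peaks, of which 18.4% were higher and 6.56% lower. Among promoter peaks 6 of 71 (8.45%) were called, against 9.50% of all promoter peaks. The latter class takes peaks within 1 kb of a start of any protein-coding gene, not of a given gene alone, so the classes differ somewhat. Between genotypes over both tissues 15 of 222 peaks (6.76%) were called, 5 higher and 10 lower in Vps34-deficient Tregs, against 7.48% of all peaks, of which 3.39% were higher and 4.09% lower. Here 5 of the 71 promoter peaks (7.04%) were called, against 2.91% of all promoter peaks. These 5 peaks lie at 4 genes, and only the Fads2 peak is the main promoter of its gene.

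Within spleen 1 peak was called between genotypes, which was higher, against 1.68% of all peaks (0.534% higher and 1.14% lower). The count of 0 lower peaks stood beside 18 peaks in either direction with an unadjusted p below 0.05, and DESeq2 also called 0 lower. No promoter peak was called in spleen, against 0.621% of all promoter peaks, and 4 of 71 had an unadjusted p below 0.05. Within lung 9 peaks (4.05%) were called, 2 higher and 7 lower, against 5.47% of all peaks (1.41% higher and 4.06% lower), and 2 of the 71 promoter peaks were called, against 3.16%. In the same lung libraries the summed myeloid markers stood at 17.7 to 18.8 CPM in controls against 11.1 to 12.9 CPM. That sum rests on 2 of 8 markers and mostly on 1 Spi1 peak, with means of 15.3 and 9.94 CPM. The adipocyte sums (11.6 to 11.8 against 13.7 to 16.5 CPM) and CD8 and NK sums (24.6 to 28.4 against 33.8 to 40.1 CPM) went the other way. The part of these markers in the lung calls was not tested. Whether the genotype difference itself differed between lung and spleen was tested by the interaction term, which called 0 of 222 peaks with edgeR and 0 with DESeq2, against 0.00206% of all peaks, while 17 had an unadjusted p below 0.05. A call in a single tissue is therefore not shown to be particular to that tissue. Of the 42 genes, 19 had no called peak in any of these comparisons, and the matching number over all genes was not computed. The shares of called peaks lie near or below those of all peaks except for the promoter peaks between genotypes. Of those 5 promoter calls, 3 (Srebf2, Cpt1a and Fads2) were lost without lung control 2, and the 2 at Lss were not.

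These counts rested in part on single libraries. Without lung control 2, the lung library with the smallest share of counts in narrow peaks, 1 higher and 5 lower peaks were called between genotypes over both tissues and 0 higher and 1 lower in lung. Over all peaks the same omission left 1.55% higher and 3.01% lower between genotypes and 0.653% and 1.29% in lung. Without lung control 1, 8 higher and 11 lower peaks were called in lung, where 5.30% of all peaks were then higher and 4.30% lower. The counts of all peaks thus moved with these libraries too. Peaks over 220 bp fitted alone, an alternative chosen after the data were seen, gave 1 higher and 10 lower peaks between genotypes. The genotype peaks that kept their call whichever of the 10 libraries was left out were those of Dgat1, Ppard and the better supported peak of Elovl6, both peaks of Lss and 1 of Srebf2. With the log2 share of counts in narrow peaks as a covariate, also chosen after the data were seen, the Dgat1 and Srebf2 peaks were the 2 of the 15 that were called (adjusted p = 0.0385 and 0.0297). The covariate is higher in all lung libraries and, within each tissue, higher in the Vps34-deficient libraries than in both controls. It thus also takes up part of the tissue and genotype differences, and a lost call does not tell these apart from the share. Of the 39 tissue calls 1 was left.

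For each gene the promoter peak with the highest mean CPM was taken as its main promoter. Cd36, which encodes a fatty acid scavenger receptor, had 7 peaks but none at a start, and the other 41 genes had 40 distinct main promoters. Levels between genes were compared per kb of peak. The median was 53.6 CPM per kb and the range 4.40 to 531. Between the highest and lowest of the 10 libraries, 26 of the 40 main promoters varied by less than 1.5-fold and 35 by less than 2-fold, with a median of 1.42-fold. Of the 40, 2 were called between tissues (Lpl and Fads2), 1 between genotypes over both tissues (Fads2), 0 in spleen and 1 in lung (Dgat1), against 9.50%, 2.91%, 0.621% and 3.16% of all promoter peaks. The median log2 difference over the 40 main promoters was -0.06 between lung and spleen and -0.09 between Vps34-deficient and control, against -0.07 and -0.03 over all promoter peaks.

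**Figure D1:**
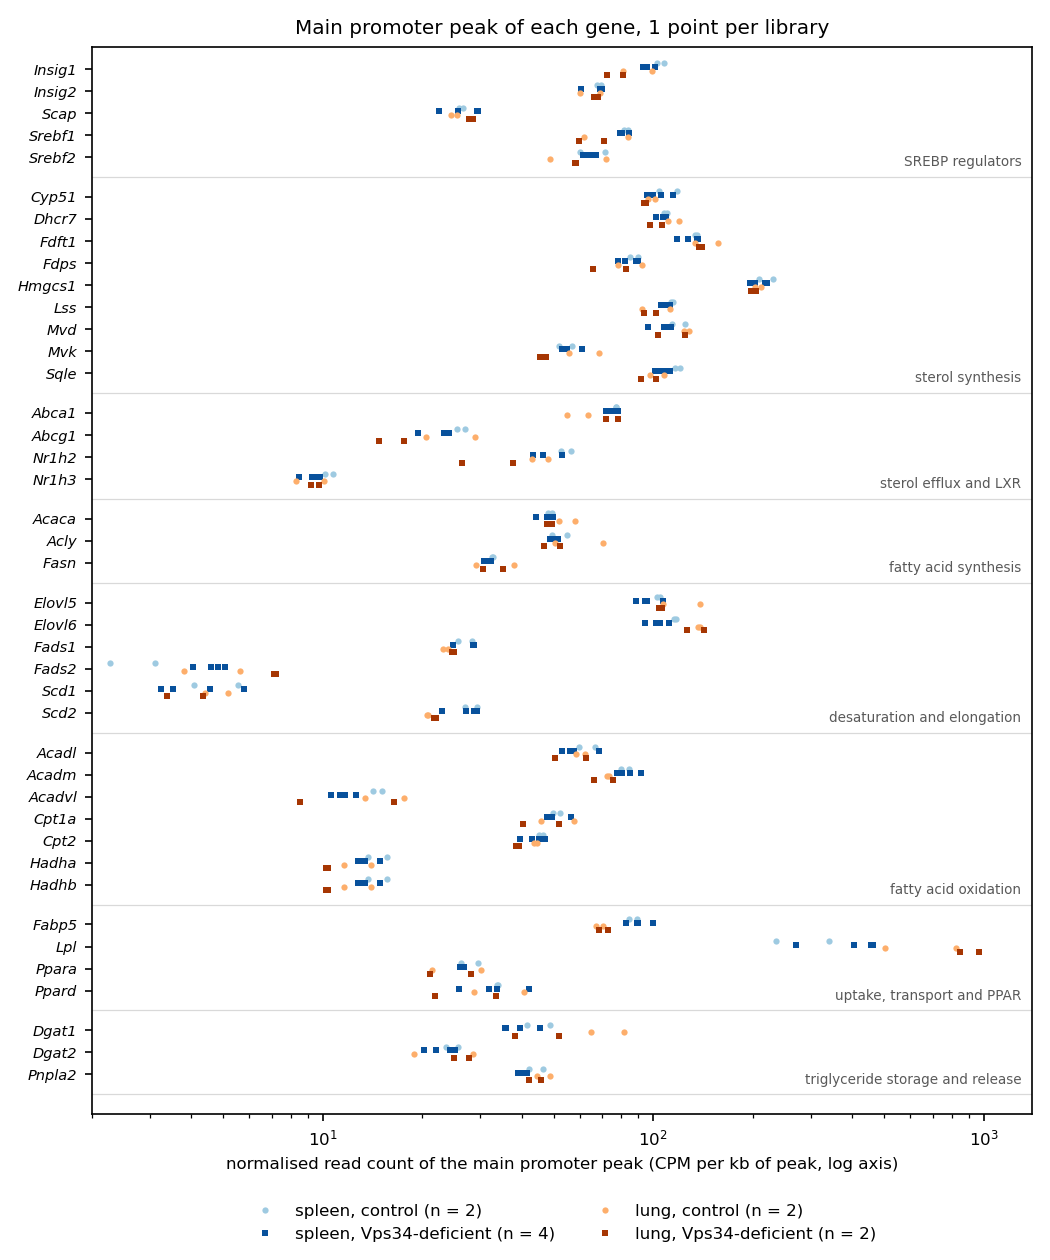
Level of the main promoter peak of each gene in every library, in CPM per kb of peak on a log axis, with genes grouped by role and colours for the 4 groups. Most genes form tight clusters across the 10 libraries, whereas Lpl, Fads2, Dgat1, Nr1h2 and Acadvl spread over more than 2-fold, and Lpl reaches 531 CPM per kb on average.

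Among the SREBP regulators, the main promoters of Insig1, Srebf1, Insig2 and Srebf2 were all open, with means of 92.8, 76.5, 67 and 62.6 CPM per kb, and that of Scap stood at 26.6. Srebf1 and Srebf2 encode the SREBP precursors, and the Insig genes encode the sterol-dependent anchors. None of these 5 was called in any comparison. The Insig1 promoter held 57.2 and 60.3 CPM in spleen control Tregs against 53.3, 56.3, 51.8 and 52.8 CPM in the deficient ones. In lung it held 45.3 and 55.5 CPM in control Tregs against 45.1 and 40.3 CPM in deficient ones. The log2 difference between lung and spleen was -0.28 ± 0.0736 (SE; adjusted p = 0.00415), which passed the p threshold but not the fold threshold.

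The promoter of Hmgcs1, the cytosolic HMG-CoA synthase, and that of Insig1 carry known regulatory elements. The 200 bases from 250 to 51 bases before the RefSeq start are printed for both (GRCm38; chr13:119690101-119690300, plus strand, and chr5:28071162-28071361, plus strand), since Hmgcs1 had the highest main promoter of the sterol pathway and Insig1 is the feedback gene. Capitals mark the SREBP element TCACNCCAC, the E-box CACGTG, the NF-Y box CCAAT and the Sp/KLF box GGGCGG, each on either strand.
Hmgcs1: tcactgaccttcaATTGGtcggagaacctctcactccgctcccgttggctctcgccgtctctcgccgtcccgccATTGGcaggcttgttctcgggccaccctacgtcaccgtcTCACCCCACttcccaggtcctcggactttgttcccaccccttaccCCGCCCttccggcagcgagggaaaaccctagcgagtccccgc
Insig1: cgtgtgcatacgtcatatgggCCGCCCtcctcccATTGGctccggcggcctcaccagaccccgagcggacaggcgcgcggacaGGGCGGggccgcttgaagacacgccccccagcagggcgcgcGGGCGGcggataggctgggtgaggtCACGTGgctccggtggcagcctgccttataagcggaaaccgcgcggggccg
RefSeq windows of 300 bases were found for 31 of the 42 genes, and entries for Abcg1, Lpl, Scd2, Fabp5, Fdps, Fads1, Fdft1, Sqle, Dgat2, Dgat1 and Scd1 are missing from the table. The SREBP element as spelt here occurred in Hmgcs1 alone of the 31, and in 1.24% of 32851 promoter windows of all genes. The 31 genes have 39 windows. The E-box occurred in 6 of these, at 5 genes (Abca1, Dhcr7, Elovl5, Insig1 and Scap), and in 7.15% of all windows. The NF-Y box occurred in 17 of the 39 windows, at 16 genes, and in 37.4% of all windows. The Sp/KLF box occurred in 27 of the 39, at 23 genes, and in 35.7% of all. The LXR element of the DR4 type and the PPAR element of the DR1 type were found in no window of these genes and in 0.0152% and 0.0396% of all. A match is a description of letters and not of binding.

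Srebf2 had 12 peaks, and 3 of them were called between genotypes. The first was a 231-bp peak in an intron 40.9 kb from the gene start (chr15:82187955-82188185). It held 2.41 and 2.2 CPM in spleen control Tregs against 0.552, 1.21, 0.608 and 0.497 CPM in the deficient ones. In lung it held 3.71 and 1.18 CPM in control Tregs against 1.16 and 0.643 CPM in deficient ones. The groups did not overlap in either tissue, although lung control 2 and Vps34-deficient library 1 were nearly level, and the log2 difference was -1.55 ± 0.369 (adjusted p = 0.00638). In spleen alone it was -1.67 ± 0.47 (adjusted p = 0.0596), which missed the threshold, while 9 of 22 alternatives called it, with adjusted p over the alternatives from 0.00991 to 0.44.

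A second intronic Srebf2 peak, 9.34 kb from the start (chr15:82156383-82156650), held 1.72 and 1.51 CPM in spleen control Tregs against 0.276, 0.606, 1.39 and 0.567 CPM in Vps34-deficient ones. In lung it held 2.4 and 4.42 CPM in controls against 0.166 and 1.5 CPM. All Vps34-deficient libraries were below the controls of their tissue, and the log2 difference was -1.52 ± 0.428 (adjusted p = 0.0231). The call was lost without spleen control 1, lung control 2 or lung Vps34-deficient library 1. A further, narrow peak of 210 bp in a coding exon (chr15:82195956-82196165) went the other way. It held 0.603 and 0.824 CPM in spleen controls, 1.13 to 1.94 CPM in Vps34-deficient spleen libraries, 1.53 and 1.77 CPM in lung controls and 3.83 and 2.79 CPM in Vps34-deficient lung libraries, and was called higher in Vps34-deficient Tregs (1.01 ± 0.325, adjusted p = 0.0461) and in lung (1.22 ± 0.31, adjusted p = 0.00283). Its genotype call was lost when any of 9 libraries was left out, while its log2 difference lay between 0.89 and 1.12 over the alternatives. Lung control 1, with 12.4% of its counts in narrow peaks, held 1.53 CPM. Lung control 2, with 7.8%, held 1.77 CPM. The part of that share at this peak was not tested beyond the covariate fit. At Insig2 an intronic peak of 258 bp (chr1:121314888-121315145) was higher in lung, with 0.137 to 0.727 CPM in the 6 spleen libraries and 1.16 to 3.09 CPM in the 4 lung libraries (2.36 ± 0.493, adjusted p = 0.000396).

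The main promoters of 9 enzymes, from Hmgcs1 at the entry to Dhcr7 at the last step, stood between 54.7 CPM per kb (Mvk, mevalonate kinase) and 210 CPM per kb (Hmgcs1), with Fdft1 at 136, Mvd at 115, Dhcr7 at 108, Lss and Sqle at 106, Cyp51 at 102 and Fdps at 83.3. None was called in any comparison. At Hmgcs1 the mean was 220 CPM per kb in spleen controls, 209 in Vps34-deficient spleen libraries, 208 in lung controls and 202 in Vps34-deficient lung libraries, and the highest library was 1.17-fold above the lowest. Of the 28 tested peaks at these genes, 4 (14.3%) were called between tissues and 2 (7.14%) between genotypes, against 25.0% and 7.48% of all peaks.

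Both genotype calls lay at Lss, which encodes lanosterol synthase, the enzyme that closes the sterol rings. The peaks lie inside the gene, 9.93 and 11.5 kb from its first start, but within 1 kb of starts annotated for shorter Lss transcripts, so they counted as promoter peaks. In the intronic peak (chr10:76541350-76541691) the spleen controls held 3.27 and 3.71 CPM and the Vps34-deficient spleen libraries 1.79, 2.18, 1.39 and 1.84 CPM. The lung controls held 3.49 and 4.78 CPM and the Vps34-deficient lung libraries 2.16 and 1.07 CPM. All 6 Vps34-deficient libraries were below all 4 controls, by -1.10 ± 0.259 on the log2 scale (adjusted p = 0.00577).

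The neighbouring peak (chr10:76542709-76543373), which overlaps an untranslated exon, behaved alike. It held 9.82 and 9.34 CPM in spleen controls, 5.11, 6.79, 5.56 and 7.66 CPM in Vps34-deficient spleen libraries, 9.82 and 8.91 CPM in lung controls and 5.82 and 5.36 CPM in Vps34-deficient lung libraries. Again every Vps34-deficient library was below every control (-0.66 ± 0.159, adjusted p = 0.00699). The main Lss promoter did not pass the test (log2 difference -0.07). The central 300 bases of the intronic Lss peak (chr10:76541371-76541670, plus strand) are shown because it is the sterol enzyme peak with the larger genotype difference. Capitals mark the NF-Y box and the Runx letters TGTGGT on either strand, which occur in 30.2% and 26.6% of 89553 tested peak windows of that length.
Lss: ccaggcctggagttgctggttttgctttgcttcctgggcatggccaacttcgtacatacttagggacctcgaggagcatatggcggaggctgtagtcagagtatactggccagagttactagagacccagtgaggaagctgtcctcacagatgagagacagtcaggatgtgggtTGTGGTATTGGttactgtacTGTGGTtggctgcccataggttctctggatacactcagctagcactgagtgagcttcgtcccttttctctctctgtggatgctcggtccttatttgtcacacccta

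Between tissues, a peak 8.13 kb upstream of Cyp51, the lanosterol demethylase (chr5:4112674-4113071), was higher in lung. The 6 spleen libraries held 0.849 to 2.07 CPM, the lung controls 6.76 and 5.59 CPM and the Vps34-deficient lung libraries 2.66 and 2.57 CPM (1.63 ± 0.311, adjusted p = 0.000142). In lung the genotype difference at this peak was -1.23 ± 0.422, with an adjusted p of 0.0821. Peaks near Fdps, Dhcr7 and Mvd were lower in lung, by -0.85, -0.75 and -0.71 on the log2 scale (adjusted p = 0.000967, 0.00719 and 0.00759). The Fdps peak (chr3:89087610-89087963) lies 5.62 kb past the gene and closer to the start of Rusc1. It held 5.49 to 7.66 CPM in spleen and 3.05 to 5.16 CPM in lung, with no overlap.

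Sterol export and the LXR receptors were represented by Abca1 and Abcg1, which pump cholesterol out of the cell, and by Nr1h2 and Nr1h3, which encode LXRβ and LXRα. Abca1 had a main promoter of 72.6 CPM per kb and Nr1h2 of 45.2, whereas Abcg1 had 22 and Nr1h3 9.53, among the lowest. None of these 4 was called. Abcg1 had 12 peaks, and its called peaks pointed both ways. An intronic peak 18 kb from the start (chr17:31075425-31075865) held 7.58 and 9.89 CPM in spleen control Tregs against 6.35, 7.21, 4.52 and 6.53 CPM in Vps34-deficient spleen libraries. In lung it held 5.23 and 6.04 CPM in control Tregs against 3.66 and 2.57 CPM in deficient ones. It was thus lower both in Vps34-deficient Tregs (-0.63 ± 0.185, adjusted p = 0.0289) and in lung (-0.79 ± 0.195, adjusted p = 0.00223), with no overlap between genotypes within a tissue. The genotype call was lost without lung control 2, spleen control 2 or lung Vps34-deficient library 2.

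A narrow intronic Abcg1 peak 44.6 kb from the start (chr17:31102165-31102374) held 2.07 and 1.92 CPM in spleen controls, 4.14, 3.88, 2.34 and 5.25 CPM in Vps34-deficient spleen libraries, 8.51 and 2.65 CPM in lung controls and 10.3 and 9.01 CPM in Vps34-deficient lung libraries. It was called higher in Vps34-deficient Tregs (0.89 ± 0.259, adjusted p = 0.0277) and in lung (1.37 ± 0.247, adjusted p = 0.000105). The low lung control 2 is also the lung library with the smallest share of narrow-peak counts, and with that share as a covariate the differences were -0.01 and -0.89, with adjusted p of 0.996 and 0.735. The genotype call was also lost on leaving out any of 8 libraries, all but lung control 1 and spleen Vps34-deficient library 3. A further Abcg1 peak of 198 bp (chr17:31082363-31082560) was called between genotypes in lung, where controls held 0.218 and 0.294 CPM and Vps34-deficient libraries 1.83 and 1.29 CPM (2.55 ± 0.73, adjusted p = 0.0324). Control values there rest on about 2 to 4 counts, and the call was lost without either lung control or lung Vps34-deficient library 1.

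Past the end of Nr1h3, 1.78 kb from the gene, lies a peak (chr2:91181958-91182283) that is 0.565 kb from a start of the neighbour Madd. It held 7.24 and 7.83 CPM in spleen controls, 4.14, 4, 5.91 and 5.67 CPM in Vps34-deficient spleen libraries, 14.4 and 21.9 CPM in lung controls and 13.1 and 8.79 CPM in Vps34-deficient lung libraries. All lung libraries were above all spleen libraries (1.21 ± 0.165, adjusted p = 1.21e-06), and within each tissue the Vps34-deficient libraries were below the controls (-0.66 ± 0.165, adjusted p = 0.00972). The genotype call was lost without lung control 2. The tissue call was the one that held with the narrow-peak share as a covariate (2.03, adjusted p = 0.0224). A peak overlapping the Madd start itself (chr2:91183729-91184175) was also higher in lung, with 15.2 to 23.3 CPM in spleen and 22.9 to 34.2 CPM in lung (0.52 ± 0.106, adjusted p = 0.000274), and its lowest lung library lay below its highest spleen library. This call lay close to the fold threshold and was lost under 12 of 23 alternatives, among them library size scaling, halved counts and the omission of any of 6 libraries (lung control 2, lung Vps34-deficient library 1, spleen control 1 and Vps34-deficient spleen libraries 1, 2 and 3). The fit with GC offsets is also among the 12, but it gave this peak the median GC content, since its own was not used here. Which of the genes these peaks act on was not measured.

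Fatty acid synthesis was represented by Acly, Acaca and Fasn, the enzymes that make cytosolic acetyl-CoA, malonyl-CoA and palmitate. Their main promoters stood at 52.4, 49.5 and 32.3 CPM per kb, and none was called. Among their 14 peaks 3 (21.4%, against 18.4% of all peaks) were higher in lung, all at Acaca, and 1 Acaca peak (7.14%, against 4.06%) was lower in Vps34-deficient lung Tregs. That peak (chr11:84252374-84252806), in an intron, held 5.77 and 5.91 CPM in spleen controls, 4.42, 5.7, 4.6 and 7.09 CPM in Vps34-deficient spleen libraries, 5.45 and 6.18 CPM in lung controls and 2.33 and 3 CPM in Vps34-deficient lung libraries. The difference in lung was -1.14 ± 0.322 (adjusted p = 0.0291) and that in spleen -0.10 ± 0.239 (adjusted p = 0.905), with an interaction of -1.04 and an adjusted p of 0.53. The call was lost without lung control 2, either spleen control or either Vps34-deficient lung library. Of the lung-higher Acaca peaks, 2 were narrow (212 and 217 bp), with 0.172 to 1.22 CPM in spleen and 1.18 to 4.72 CPM in lung. The remaining one, an intronic peak of 306 bp (chr11:84134397-84134702), held 0.426 to 1.58 CPM in spleen and 2.18 to 2.65 CPM in lung (1.27 ± 0.35, adjusted p = 0.00559).

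The genes of desaturation and elongation held the most peaks, 59 in all, of which 21 lie at Elovl6 and 18 at Elovl5. Elovl6 extends palmitate to stearate, Elovl5 extends polyunsaturated fatty acids, Fads1 and Fads2 add double bonds to them, and Scd1 and Scd2 make monounsaturated fatty acids. Main promoters ranged from 119 CPM per kb at Elovl6 and 105 at Elovl5 to 4.76 at Fads2 and 4.40 at Scd1, the lowest of all. Between tissues 10 of the 59 peaks (16.9%) were called, against 25.0% of all peaks, and between genotypes 3 (5.08%), against 7.48%.

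Elovl6 carried the intronic peaks of this role that were lower without Vps34. The first lies 25.4 kb from the start (chr3:129557605-129557938) and held 17.7 and 15.4 CPM in spleen control Tregs against 12.8, 11.6, 11.5 and 11.9 CPM in Vps34-deficient spleen libraries. In lung it held 17.6 and 17.5 CPM in control Tregs against 9.15 and 11.8 CPM in deficient ones. Every control library was above every Vps34-deficient library. The log2 difference was -0.58 ± 0.127 over both tissues (adjusted p = 0.0029), -0.75 ± 0.196 in lung (adjusted p = 0.0175) and -0.47 ± 0.157 in spleen (adjusted p = 0.127). The lung call was lost without either lung control or lung Vps34-deficient library 1.

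A second Elovl6 peak 30.3 kb from the start (chr3:129562500-129562752) held 5.26 and 4.81 CPM in spleen controls, 4, 4.24, 3.47 and 2.77 CPM in Vps34-deficient spleen libraries, 5.89 and 7.66 CPM in lung controls and 3.66 and 3.22 CPM in Vps34-deficient lung libraries (-0.68 ± 0.201, adjusted p = 0.0296). It too had no overlap between genotypes. Its call was lost without any of 5 libraries, among them both Vps34-deficient lung libraries and lung control 2. The central 300 bases of the first Elovl6 peak (chr3:129557622-129557921, plus strand) are shown as the most accessible of the wide peaks called between genotypes over both tissues. Capitals mark the NF-Y box, the Sp/KLF box and the Tcf/Lef letters CTTTGA on either strand, which occur in 30.2%, 18.3% and 21.6% of tested peak windows.
Elovl6: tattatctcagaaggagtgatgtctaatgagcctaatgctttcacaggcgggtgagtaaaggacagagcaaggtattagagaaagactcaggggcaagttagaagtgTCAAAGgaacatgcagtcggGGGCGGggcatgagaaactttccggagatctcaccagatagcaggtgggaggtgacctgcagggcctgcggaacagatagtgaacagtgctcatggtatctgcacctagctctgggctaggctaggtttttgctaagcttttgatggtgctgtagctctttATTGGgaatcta

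Fads2 was the gene whose main promoter was called both between tissues and between genotypes. The peak is wide (1085 bp, chr19:10101238-10102322) but weak. It held 3.36 and 2.47 CPM in spleen controls, 5.24, 4.97, 5.47 and 4.4 CPM in Vps34-deficient spleen libraries, 6.11 and 4.12 CPM in lung controls and 7.82 and 7.72 CPM in Vps34-deficient lung libraries. Vps34-deficient libraries were above the controls of their tissue without overlap (0.70 ± 0.192, adjusted p = 0.018), and lung was above spleen by 0.68 ± 0.188 (adjusted p = 0.00546) with overlap, since lung control 2 lay below all 4 Vps34-deficient spleen libraries. The genotype call was lost without lung control 2 or spleen control 2.

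Between tissues, Elovl5 had 5 peaks called and they did not share a direction. An intronic peak 48.7 kb from the start (chr9:77965840-77966350) held 5.66 to 7.76 CPM in spleen and 11.1 to 14 CPM in lung (1.01 ± 0.15, adjusted p = 4.99e-06). A peak at an alternative start (chr9:77921547-77921975) held 13.3 to 17.3 CPM in spleen and 8.72 to 10.5 CPM in lung (-0.62 ± 0.134, adjusted p = 0.000551). Tissue groups did not overlap in either. An Elovl5 peak at 11.6 kb was lower in lung by -0.78 (adjusted p = 0.0055). One of 296 bp at 11 kb (chr9:77928265-77928560) was called higher in Vps34-deficient lung Tregs, where controls held 1.74 and 2.06 CPM and Vps34-deficient libraries 5.49 and 3.22 CPM (1.19 ± 0.369, adjusted p = 0.0493). That call was lost under most of the alternatives tried. At Elovl6, a peak at 56.6 kb held 5.21 to 7.42 CPM in spleen and 8.58 to 17.1 CPM in lung (0.85 ± 0.16, adjusted p = 0.000121), and one at 89.2 kb held 4.17 to 5.34 and 1.96 to 3.43 CPM (-0.83 ± 0.219, adjusted p = 0.00384).

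For fatty acid oxidation, the main promoters of Acadm and Acadl, which encode acyl-CoA dehydrogenases, stood at 78.6 and 59.5 CPM per kb. Those of Cpt1a and Cpt2, the carnitine palmitoyltransferases that carry fatty acids into mitochondria, stood at 50 and 43.2, and those of Acadvl and of Hadha with Hadhb, the trifunctional protein, at 13.1 and 13. None was called. Of 24 peaks, 4 (16.7%, against 25.0% of all peaks) were called between tissues and 1 (4.17%, against 7.48%) between genotypes, the latter at Cpt1a. This peak (chr19:3334063-3334395) lies in an intron 11.9 kb from the first start and 0.338 kb from another. It held 3.49 and 3.85 CPM in spleen controls, 2.07, 1.7, 3.3 and 2.98 CPM in Vps34-deficient spleen libraries, 6.33 and 10 CPM in lung controls and 2.66 and 3.43 CPM in Vps34-deficient lung libraries. Genotypes did not overlap within a tissue, and the lung controls stood above all other libraries.

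The log2 genotype difference at the Cpt1a peak was -0.92 ± 0.241 over both tissues (adjusted p = 0.014), -1.44 ± 0.351 in lung (adjusted p = 0.0102) and -0.53 ± 0.294 in spleen (adjusted p = 0.438), with an interaction of -0.92 and an adjusted p of 0.686. The peak was also higher in lung (0.71 ± 0.245, adjusted p = 0.0271). Without lung control 2 or lung Vps34-deficient library 1 both genotype calls were lost. The central 300 bases (chr19:3334080-3334379, plus strand) are shown as the oxidation peak called between genotypes. The capitals mark the AP-1 letters TGANTCA, which occur in 13% of tested peak windows.
Cpt1a: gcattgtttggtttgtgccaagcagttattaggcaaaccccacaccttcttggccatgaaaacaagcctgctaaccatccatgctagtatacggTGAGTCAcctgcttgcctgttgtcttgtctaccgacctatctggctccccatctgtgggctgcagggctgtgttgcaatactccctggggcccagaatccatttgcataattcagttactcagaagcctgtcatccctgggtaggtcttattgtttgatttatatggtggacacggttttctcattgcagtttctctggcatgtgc
Another 2 Cpt1a peaks were called between tissues. A 272-bp peak at the first start was lower in lung (-0.56 ± 0.211, adjusted p = 0.0438), with 3.85 to 6.24 CPM in spleen and 2.57 to 4.33 CPM in lung. That call was lost under 11 of 23 alternatives, among them GC offsets, peaks over 220 bp alone and the omission of lung control 1, lung Vps34-deficient library 2, spleen control 1 or spleen Vps34-deficient library 4, and its log2 difference was as small as -0.21. A narrow peak at 13 kb was higher (1.10, adjusted p = 0.0105). Past Hadhb, a narrow peak of 211 bp (chr5:30188253-30188463) held 0.345 to 1.82 CPM in spleen and 1.77 to 3.99 CPM in lung (1.91 ± 0.354, adjusted p = 9.56e-05).

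Genes of uptake, transport and the PPAR receptors gave 2 of the 5 calls that were higher in Vps34-deficient Tregs, both at narrow peaks. Ppard and Ppara encode PPARδ and PPARα, Fabp5 a fatty acid carrier and Lpl lipoprotein lipase. The main promoters of Fabp5, Ppard and Ppara held 81.5, 32.5 and 26.2 CPM per kb and were not called. The 210-bp Ppard peak lies 61.9 kb from the gene start, in an exon of a non-coding transcript. It held 5.17 and 7.83 CPM in spleen controls, 13.1, 12.4, 9.47 and 13.3 CPM in Vps34-deficient spleen libraries, 25.7 and 14 CPM in lung controls and 33.8 and 30.1 CPM in Vps34-deficient lung libraries. Vps34-deficient libraries were above the controls in both tissues, and lung was above spleen without overlap.

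At Ppard the log2 difference was 0.81 ± 0.156 between genotypes (adjusted p = 0.000993), 0.91 ± 0.218 in spleen (adjusted p = 0.0274), the single spleen call, and 1.49 ± 0.15 between tissues (adjusted p = 2.19e-08). The spleen call was lost on leaving out any of 7 libraries (both spleen controls, Vps34-deficient spleen libraries 1, 2 and 4 and both Vps34-deficient lung libraries). The Ppara peak (chr15:85731115-85731324), also of 210 bp and 3.76 kb upstream of the start, held 0.776 and 1.1 CPM in spleen controls, 1.52, 2.42, 1.65 and 1.99 CPM in Vps34-deficient spleen libraries, 4.14 and 2.06 CPM in lung controls and 6.65 and 6.86 CPM in Vps34-deficient lung libraries. It was higher between genotypes by 1.10 ± 0.272 (adjusted p = 0.00895) and between tissues by 1.79 ± 0.256 (adjusted p = 2.53e-06), and its genotype call was lost without lung control 2. At both peaks the order of the libraries resembles that of their share of narrow-peak counts. With that share as a covariate, the genotype differences were 0.25 (adjusted p = 0.645) at Ppard and 0.61 (adjusted p = 0.586) at Ppara, and the tissue differences 0.12 and 0.58 (adjusted p = 0.967 and 0.903).

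The Ppara peak is printed whole on the plus strand, since it is short and carries a higher call in both comparisons. Capitals mark the NF-Y box and the Runx letters TGTGGT on either strand, which occur in 30.2% and 26.6% of tested peak windows.
Ppara: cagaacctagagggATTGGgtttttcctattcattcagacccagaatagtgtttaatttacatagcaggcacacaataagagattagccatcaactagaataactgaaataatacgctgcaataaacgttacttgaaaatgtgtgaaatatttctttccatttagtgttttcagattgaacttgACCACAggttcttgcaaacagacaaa

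**Figure D2:**
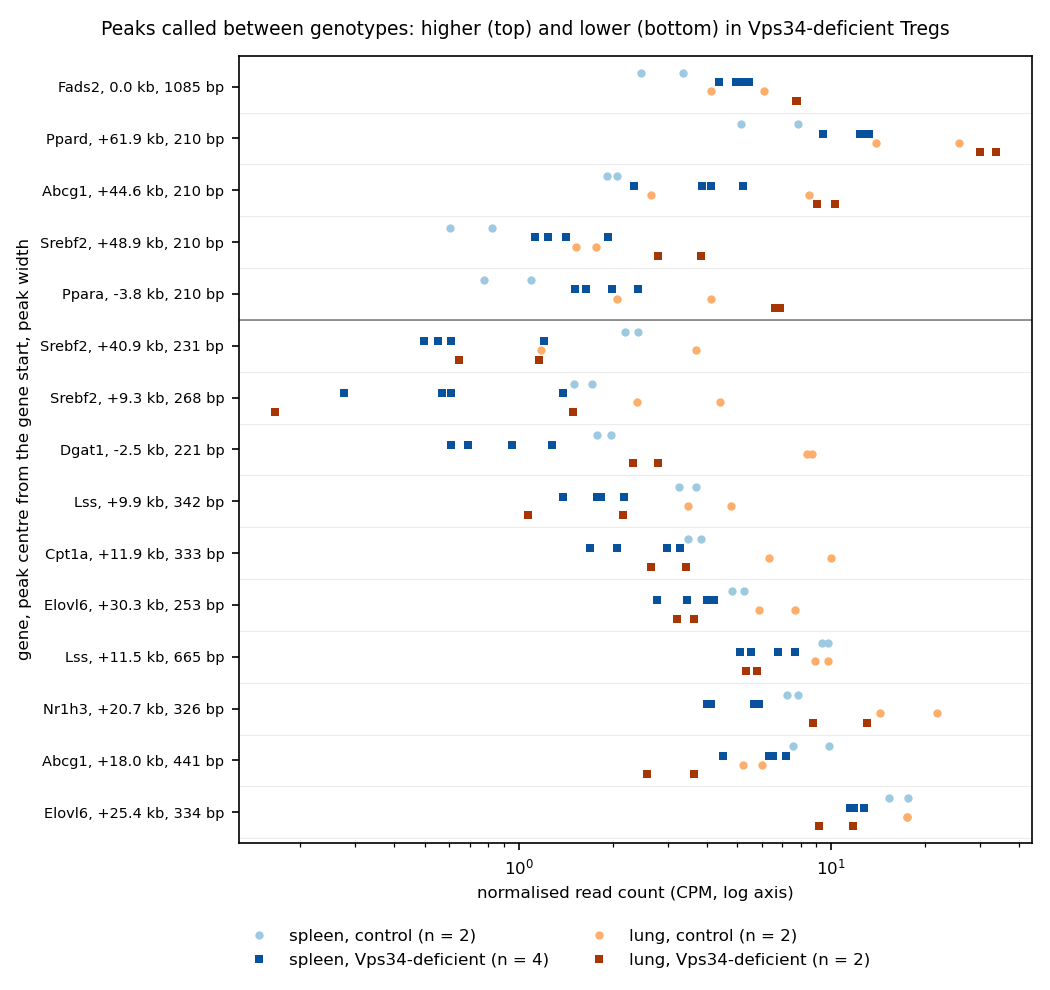
CPM on a log axis in each of the 10 libraries for the 15 peaks called between genotypes, labelled by gene, distance of the peak centre from the gene start and width, with the 5 higher peaks above the line and the 10 lower ones below. The rows were chosen by the genotype test. In most of them the Vps34-deficient squares lie to one side of the control circles of the same tissue. Of the 5 higher peaks, 4 are 210 bp wide.

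Lpl had 1 peak, at its start (chr8:68880445-68880657), of 213 bp, and the highest level per kb of all main promoters. It held 50.2 and 72.4 CPM in spleen controls, 98.5, 86.2, 57.6 and 96.8 CPM in Vps34-deficient spleen libraries, 176 and 107 CPM in lung controls and 180 and 206 CPM in Vps34-deficient lung libraries. Lung libraries were all above spleen libraries (1.20 ± 0.211, adjusted p = 0.00429), and the genotype difference of 0.46 ± 0.217 was not called (adjusted p = 0.248). The libraries lie in nearly the same order as their narrow-peak shares. Among the 7 peaks of Cd36, 2 narrow ones were higher in lung and 1 of 299 bp (chr5:17829231-17829529) was lower, with 0.606 to 2.33 CPM in spleen, a count of 0 in 3 lung libraries and 0.429 CPM in the fourth. As a fragment mostly adds 2 counts, 0 fragments allow up to 3 fragments, or 6 counts, which is 0.442 to 0.654 CPM in these 3 libraries, counting error only, and the adjusted p was 0.000245, while the fitted fold change depends on the prior count and is not given as a size.

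**Figure D3:**
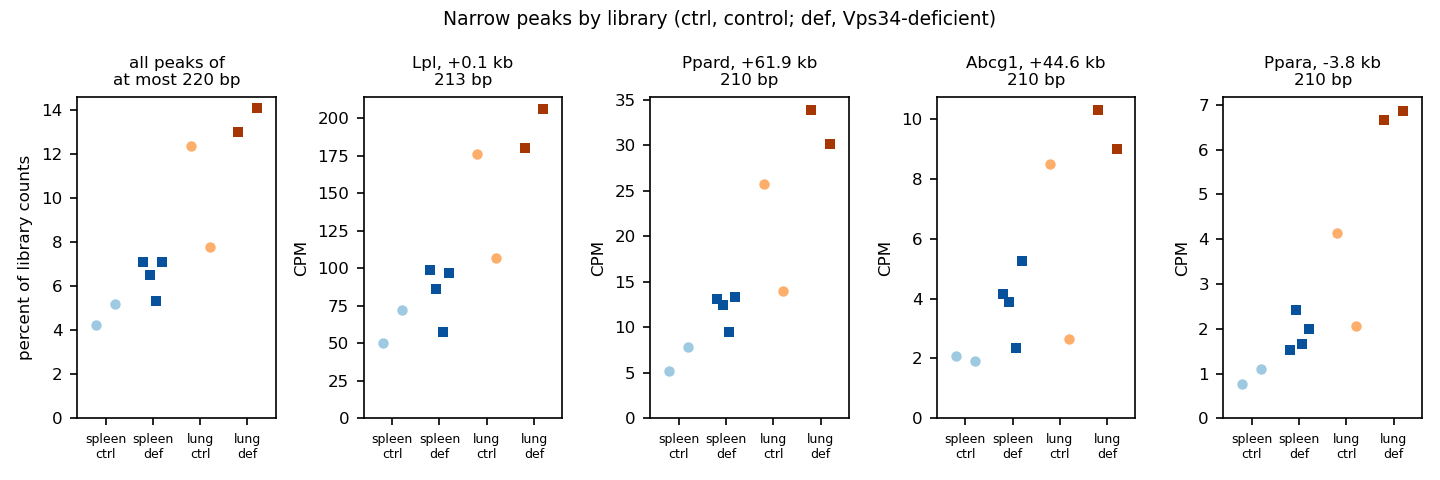
Left, percent of each library's counts in all peaks of at most 220 bp, by group. Right, CPM in each library at the narrow peaks of Lpl, Ppard, Abcg1 and Ppara. In all panels the Vps34-deficient lung libraries are highest, lung control 1 lies above lung control 2, and spleen control 1 is below every Vps34-deficient library, as is spleen control 2 except at Lpl.

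Triglyceride storage and release had Dgat1 and Dgat2, which make triglyceride from diacylglycerol, and Pnpla2, the lipase that starts its breakdown. Main promoters held 48.2, 24.1 and 43 CPM per kb. Of their 17 peaks, 5 (29.4%, against 18.4% of all peaks) were higher in lung, 4 of them at Dgat1 and 1 upstream of Dgat2. In Vps34-deficient lung Tregs 4 (23.5%, against 4.06%) were lower, all at Dgat1, which has 5 peaks. The peak with the best supported genotype difference of all 222 lies 2.46 kb upstream of the Dgat1 start (chr15:76514308-76514528, 221 bp). It held 1.98 and 1.79 CPM in spleen control Tregs against 0.69, 0.606, 0.955 and 1.28 CPM in Vps34-deficient spleen libraries. In lung it held 8.72 and 8.39 CPM in control Tregs against 2.33 and 2.79 CPM in deficient ones. Both lung controls stood above all other libraries, and in both tissues the Vps34-deficient libraries were below the controls.

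The log2 difference at this Dgat1 peak was -1.41 ± 0.262 over both tissues (adjusted p = 0.000515), -1.74 ± 0.372 in lung (adjusted p = 0.00327) and -1.10 ± 0.352 in spleen (adjusted p = 0.109), and between tissues it was 1.85 ± 0.265 (adjusted p = 2.45e-06). The genotype call over both tissues held under every alternative tried, with log2 differences from -1.66 to -1.28, whereas that in lung was lost without lung Vps34-deficient library 1. The interaction was -0.65 with an adjusted p of 0.836, so the larger difference in lung was not shown to differ from that in spleen. The main Dgat1 promoter (chr15:76511681-76512622) held 39 and 45.9 CPM in spleen controls, 33.7, 37.3, 33.5 and 42.7 CPM in Vps34-deficient spleen libraries, 61 and 76.6 CPM in lung controls and 48.9 and 36 CPM in Vps34-deficient lung libraries. It was lower in Vps34-deficient lung Tregs by -0.69 ± 0.143 (adjusted p = 0.00304), a call lost without lung control 2 or lung Vps34-deficient library 2.

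Farther upstream of Dgat1, peaks at 6.88 kb (chr15:76518644-76519021) and 7.79 kb (chr15:76519487-76520008) are closer to a start of Scrt1, which lies 2.88 and 1.89 kb away. The first held 1.52 to 2.75 CPM in spleen, 8.29 and 9.35 CPM in lung controls and 4.91 and 2.57 CPM in Vps34-deficient lung libraries. The second held 0.955 to 2.13 CPM in spleen, 5.23 and 7.07 CPM in lung controls and 2.5 and 1.72 CPM in Vps34-deficient lung libraries. Both were higher in lung (1.29 and 1.13, adjusted p = 0.000169 and 0.00498) and lower in Vps34-deficient lung Tregs (-1.22 and -1.54, adjusted p = 0.0271 and 0.0198), and both genotype calls were lost without lung control 2 or lung Vps34-deficient library 2, the first also without spleen control 2 and the second without lung Vps34-deficient library 1. A peak 3.73 kb past Dgat1, at a start of Hsf1 (chr15:76497984-76498284), held 0 to 0.552 CPM in spleen, where the count of 0 in 1 library allows up to 0.426 CPM, and 1.5 to 3.39 CPM in lung (adjusted p = 6.33e-05). Upstream of Dgat2, a peak at 8.9 kb held 1.29 to 2.84 CPM in spleen, 3.71 and 6.77 CPM in lung controls and 3.33 and 2.36 CPM in Vps34-deficient lung libraries (1.17 ± 0.305, adjusted p = 0.00342).

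**Figure D4:**
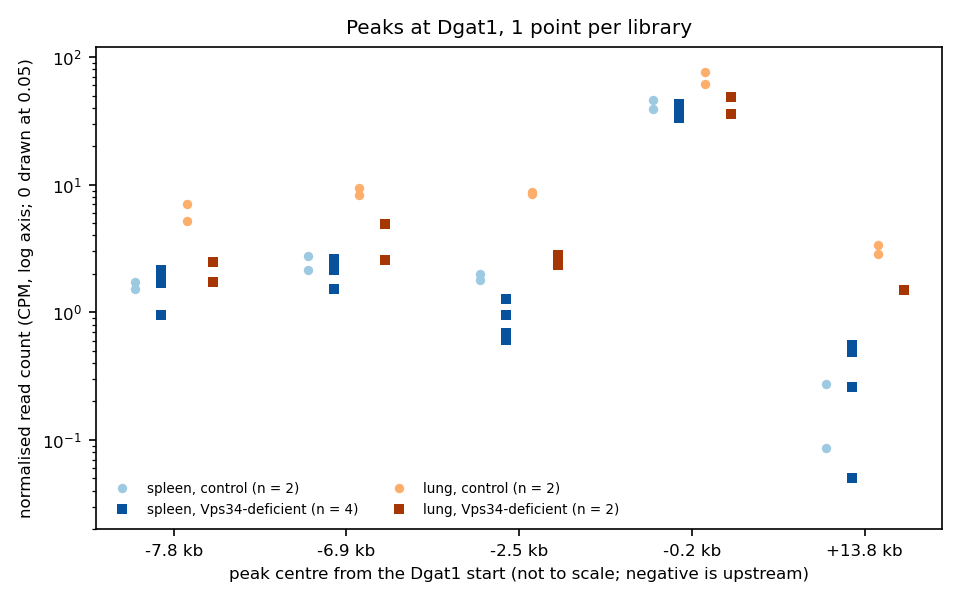
CPM on a log axis in every library at the 5 peaks of Dgat1, ordered by the distance of the peak centre from the gene start, with a count of 0 drawn at 0.05. Lung controls are the highest group at each peak, and the Vps34-deficient lung libraries lie below them at all 5.

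The called peaks differed in width by direction between tissues and between genotypes over both tissues, without separating fully. Of the 29 peaks higher in lung 13 were at most 220 bp wide, while 0 of the 10 lower ones were, and 4 of the 5 peaks higher in Vps34-deficient Tregs were narrow, against 0 of the 10 lower. Of the 34 narrow peaks tested, 38.2% were higher in lung and 11.8% higher in Vps34-deficient Tregs, against 58.0% and 8.13% of all narrow peaks. Among the 188 peaks over 220 bp, 8.51% were higher and 5.32% lower in lung, against 6.37% and 7.99% of all such peaks. Between genotypes 0.532% of them were higher and 5.32% lower, against 1.95% and 5.03%. The median width was 238 bp for peaks higher in lung and 372 bp for those lower, against 211 and 390 bp over all peaks called. The part of the narrow-peak share in these results was not tested beyond the covariate fit, where the share goes along with tissue and genotype.

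**Figure D5:**
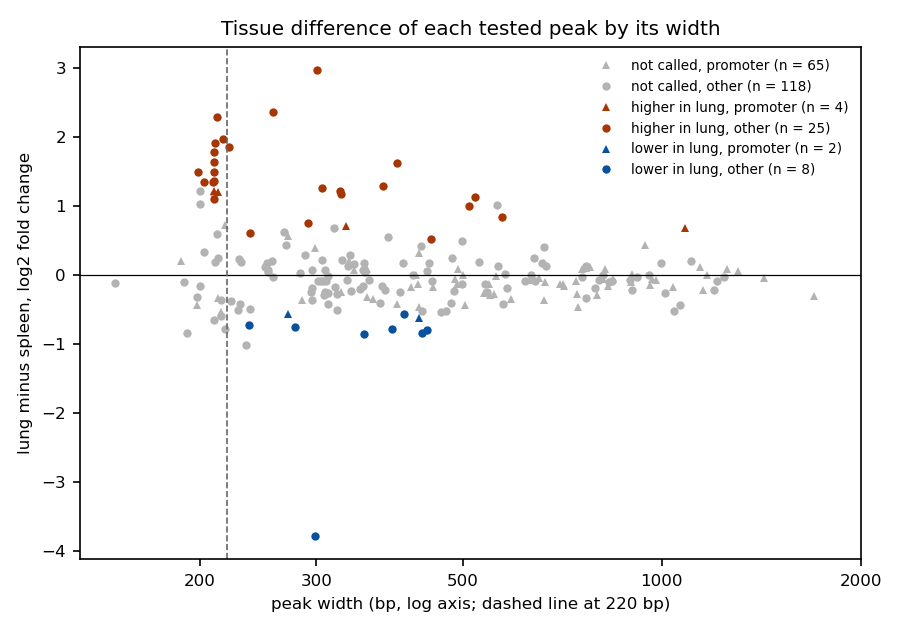
Log2 difference between lung and spleen of each of the 222 tested peaks against its width on a log axis, with the line at 220 bp, triangles for promoter peaks and circles for other peaks. Peaks higher in lung crowd at 210 bp. Many wide promoter peaks lie near 0, but some do not. Examples are Fads2 (1085 bp, 0.68) and an alternative Elovl5 start (429 bp, -0.62).

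A list of 58 further lipid genes, from Idi1 of the mevalonate pathway to Plin3 of lipid droplets, was counted by the same rule. Of its 334 tested peaks 50 (15%) were called between tissues, 33 higher and 17 lower, against 25.0% of all peaks, and 14 (4.19%) between genotypes, 5 higher and 9 lower, against 7.48%. In spleen 2 (0.599%) were lower, against 1.14% of all peaks. In lung 1 (0.299%) was higher and 12 (3.59%) lower, against 1.41% and 4.06%. Promoter peaks called between genotypes numbered 2 of 96 (2.08%), against 2.91%. The median log2 genotype difference was -0.02 over these peaks and -0.06 over those of the 42 genes, against 0.04 over all peaks.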

How the data were processed

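ATAC-seq was done on Tregs sorted from spleen and lung, and the 10 libraries were grouped by their labels. For spleen, the methods state 4 control and 2 Vps34-deficient libraries, the reverse of the labels, which were followed. The study used C57BL/6 mice of both sexes.

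The deposited table holds raw read counts per peak that the authors made, not normalised. They trimmed paired reads, aligned them with BWA, removed duplicates, shifted ends for the transposase, kept nucleosome-free fragments and called peaks per sample with MACS2, which were then merged. The submitters' processing notes name cutadapt 1.9, Picard 1.65 and MACS2 2.1.0.20150603. The methods name mm9 and the notes mm10; 51.3% of 21938 protein-coding starts lay in a peak on GRCm38, against 1.98% to 2.82% after shifts, so GRCm38 with GENCODE vM21 was used. Positions are 1-based. Between 91.5% and 96.5% of a library's counts were even, as both mates were counted, so counts overstate fragments.

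The members and gene lists were chosen with earlier results of these data known. Peaks were filtered with filterByExpr, scaled by TMM and tested with edgeR 4.0.16 (R 4.3.3), quasi-likelihood with Benjamini-Hochberg adjustment over all tested peaks. Tissue and genotype effects came from an additive model of all 10 libraries, and effects within a tissue and the interaction from a model of the 4 groups. Called means an adjusted p below 0.05 and a log2 fold change over 0.5. The biological coefficient of variation was 17.8%. Errors beside log2 differences are SE. Named peaks were, per test and direction, at most 15 called peaks in order of p, and the 3 with the smallest p in a tissue with fewer than 3 calls; other called peaks named were chosen after their values were seen. The scripts were tested on simulated data. Replicate libraries differed beyond sampling noise (a chi-square of 1.38 to 2.69 per degree of freedom on halved counts), so none was merged. Alternatives were another scaling, DESeq2 1.42.0, other filters, distances and thresholds, halved counts, GC, chromosome Y and replicate terms, subsets of libraries and leaving out each library. Sequences came from RefSeq promoter tables and the GRCm38 genome; matching letters were searched on both strands.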

Additional observations from a re-analysis of the deposited data

Results flagged for a closer look

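Srebf2, the gene of the sterol-responsive SREBP2 precursor, had 1 library that stood apart within its group at the intronic peak 40.9 kb from its start. The Vps34-deficient spleen library 2 held 1.21 CPM there, while libraries 1, 3 and 4 held 0.552, 0.608 and 0.497 CPM, and the gap to its nearest neighbour exceeded Dixon's 95% critical value for 4 samples. This library was still below both spleen controls (2.41 and 2.2 CPM). Only the group of 4 could be examined, at 39 named peaks, and chance alone gives about 1 such result in 20.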

How the results depend on the processing

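Counts of called peaks of the 42 genes are given as higher and lower. The main counts were 29 and 10 between tissues, 5 and 10 between genotypes, 1 and 0 in spleen and 2 and 7 in lung. Between tissues, control libraries alone gave 17 and 3, scaling by library size and omitting the filter on low counts each gave 17 lower, and no fold threshold gave 26 lower. Peaks over 220 bp alone gave 17 higher between tissues, 1 higher between genotypes, 0 higher and 1 lower in spleen and 1 higher in lung. The narrow-peak share as a covariate gave 1 and 0 between tissues, 0 and 2 between genotypes, 0 higher in spleen and 0 and 2 in lung. Both of these alternatives were chosen after the data were seen. In spleen, halved counts and no filter each gave 1 lower, and spleen libraries alone 4 lower. In lung, a chromosome Y covariate and no filter each gave 1 higher, and lung libraries alone 0 and 3.

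With the replicate number as a block, 26 higher and 8 lower peaks were called between tissues, 4 and 8 between genotypes, 0 higher in spleen and 0 and 4 in lung. The labels do not say whether same-numbered libraries share an animal, and correlations of same-numbered libraries across groups lay between -0.0978 and 0.0633. Over both tissues the genotype calls of Abcg1 at 18 kb, Elovl6 at 30.3 kb and Srebf2 at 40.9 kb (adjusted p = 0.0679) and 48.9 kb were lost under the block. So were the Ppard call in spleen, the lung calls of Abcg1 at 24.8 kb, Acaca, Elovl5 at 11 kb, Elovl6 at 25.4 kb and Dgat1 at 6.88 kb, and the tissue calls of Abcg1 at 15.8 kb and Cpt1a at its first start. The block ended no other call among the named peaks.

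Leaving out 1 library at a time gave 25 to 29 higher and 8 to 17 lower peaks between tissues, 1 to 5 and 5 to 11 between genotypes, 0 to 1 and 0 to 2 in spleen, 0 to 8 and 1 to 11 in lung and 0 and 0 to 1 for the interaction. The lowest genotype and lung counts, the 17 lower between tissues and the 2 lower in spleen came without lung control 2, and the highest lung counts and the 1 for the interaction without lung control 1. Of 52 single results examined, 3 changed direction, all with the narrow-peak share as a covariate and none with an adjusted p below 0.05. These were Abcg1 at 44.6 kb, with -0.89 between tissues and -0.0122 between genotypes, and Acaca (212 bp), with -0.34 between tissues. The causes were not tested. DESeq2 called 30 and 11 peaks between tissues, 6 and 10 between genotypes and 2 and 7 in lung. Lung control 1 and lung Vps34-deficient library 2 were the smallest libraries, and lung peaks under 1 CPM rest on fewer than 14 counts. A p above the threshold does not show that levels were equal.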
